A study of Mus musculus with 6 samples.

Results

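Id1, Id2, Id3 and Id4 with the bone morphogenetic protein (BMP) signalling genes Bmp4, Bmpr1a, Bmpr1b, Bmpr2, Smad1 and Smad5 are described here in mouse neural stem cell lines, the dividing brain cells that give rise to neurons and glia. They are 10 of the 18193 genes named by a probe set that stands for 1 gene only, and 27 of 45037 non-control probe sets read them on Affymetrix arrays. The series compared 3 lines labelled FoxO null with 3 lines labelled FoxO wild type, with 1 array per line, and its title names the pathways that FoxO transcription factors govern in these cells. Which of the FoxO genes these lines lack is not in the labels, nor are the strain, brain region, age, allele or Cre, and no treatment is listed. The 10 genes were selected on a known pathway and on values of this same comparison, in which Id1 and Id2 had already been seen to read higher in the lines labelled null. Their differences are therefore given as a description, with no p-value for any one of them.

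BMPs are secreted ligands that bring together type I and type II receptor kinases. The type I receptors Bmpr1a and Bmpr1b, with the type II receptor Bmpr2, phosphorylate Smad1 and Smad5, which enter the nucleus with Smad4 and switch on targets, of which the Id genes are the best known. Id proteins have a helix-loop-helix but no DNA-binding region, and so they hold E proteins away from their proneural and glial partners. In neural stem cells, BMP signals and Id genes are known for holding cells quiescent and for steering them to the astrocyte fate.

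Signals of Id1, and of 2 of the 3 Id2 probe sets, were higher on all 3 null-labelled arrays than on all 3 wild-type-labelled arrays. Of these 2 Id2 probe sets, 1 was weak. The remaining Id2 probe set and Id3 leaned the same way with overlapping groups. Id4 differed 3.19-fold to 3.92-fold between its highest and lowest array, with low lines under both labels in 2 of its 3 probe sets. The brightest probe sets of the receptors Bmpr1a, Bmpr1b and Bmpr2 and of Smad1 and Smad5 overlapped between the groups. In all, 7 of the 27 probe sets had every null-labelled array above every wild-type-labelled array, which is 25.9%, and 0 had every one below. Over all 45037 probe sets the same was seen in 6.95% above and 5.67% below. By the threshold of a limma adjusted p (Benjamini-Hochberg over all probe sets) under 0.05, 0 of the 27 probe sets passed, and of all probe sets 0.00222% passed, a single one that reads Hes5. At an unadjusted limma p under 0.05, 6 of the 27 were higher and 0 lower, beside 3.9% of all probe sets higher and 3.33% lower. Nothing is read from these counts, since the comparison helped to choose the genes. The median log2 difference, FoxO-null minus wild-type, was 0.57 over the 8 Id probe sets, 0.12 over the other 19 and 0.028 over all probe sets. Positive differences made up 7 of the 8, 14 of the 19 and 53.5% of all.

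Most FoxO probe sets read against the labels, with higher signals in the lines labelled null. Of 9 probe sets of Foxo1, Foxo3 and Foxo4, 8 had positive differences, 5 had every null-labelled array above every wild-type-labelled array and 0 the reverse. Foxo4 probe set 1456753_at read 178, 57.2 and 189.9 in null-labelled lines 1 to 3 and 5.56, 4.14 and 17.1 in wild-type-labelled lines 1 to 3, a log2 difference of 3.24 ± 0.48 that passed in the fit of genes (limma adjusted p 0.0471). All 3 wild-type-labelled readings lay under the background given below, so the size of this difference is uncertain. The other Foxo4 probe set, 1422149_at, had the negative difference. It read 20.8, 37.9 and 15.3 against 28.6, 40.2 and 24.1, with overlap (-0.31 ± 0.41). Foxo1 probe set 1416981_at read 77.9, 77.8 and 100.3 against 20.3, 20.4 and 31.7 (1.61 ± 0.29), and Foxo3 probe set 1434832_at 384, 423 and 454 against 207, 249.6 and 224 (0.87 ± 0.13). Where these probe sets lie relative to any deletion is not given, and whether the labels of the groups were exchanged was not tested. If they were, every direction here would turn. Lines are therefore called null-labelled and wild-type-labelled, and every direction here, also where FoxO-null 1 or wild-type 1 names a single line, rests on those labels. All 8 neural stem cell markers on a list of Nes, Sox2, Vim, Fabp7, Pax6, Msi1, Prom1 and Notch1 lay above each array's background, taken as the highest of 27 bacterial control probe sets. Their summed signal, most of it Vim and Fabp7, was 27235 to 30894 under the null label and 22045 to 29964 under the other. Msi1 and Prom1 read higher on every null-labelled array than on every wild-type-labelled array. The other markers overlapped between the groups, with Nes leaning lower (-0.36 ± 0.17). The background itself was higher in the null-labelled lines, at 19.2, 27.6 and 26.9 against 14.4, 15.8 and 19.1 in lines 1 to 3 of each label. Wild-type 1 stood apart by an 18S ribosomal RNA control signal of 211, against 23.5 to 38.9 on the others, and it read lowest of the 6 for Id1 and for the brightest probe sets of Id2 and Id4. Values without it are given with each of these genes.

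Bmp4, the only ligand among the 10 genes, had overlapping groups. Its single probe set read 86.1, 99.4 and 64.7 in null-labelled lines 1 to 3, and wild-type-labelled lines 1 to 3 gave 48.8, 42.4 and 82.2, all in linear MAS5 signal. This order, null-labelled lines first, is kept throughout. Wild-type 3 thus read like a null-labelled line, and the other 2 wild-type-labelled lines were the lowest. The means were 83.4 ± 17.5 and 57.8 ± 21.4 (SD, n = 3 lines each), a log2 difference of 0.52 ± 0.27 (standard error of the limma fit, as for all differences below). Log2 differences are on the log2(signal + 5.94) scale, which understates the change of weak signals. Without 1 array at a time it lay between 0.34, without wild-type 2, and 0.78, without wild-type 3.

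Of 12 other BMP-class ligand genes, few were measurable. The array table named no probe set for 3, 6 fell under the signal filter (a mean log2 value equal to a signal of 16.2), and 3 were tested. Bmp7 alone was above background on all 6 arrays, at 161, 201 and 216 against 240.4, 159.9 and 216, and differed by -0.081 ± 0.18 on the log2 scale (limma adjusted p 0.914). The ligand genes with the smallest p were Gdf2 at -0.40 ± 0.38 (limma adjusted p 0.767), above background on 5 of 6 arrays, and Bmp8a at -0.32 ± 0.43 (0.848), above it on 2 of 6. Leaving out 1 array moved Bmp8a between -0.55 (FoxO-null 3) and -0.12 (FoxO-null 2) and turned Bmp7 to 0.037 without FoxO-null 1 and to 0.039 without wild-type 1. Without FoxO-null 1, the low line at 17.1, the Gdf2 difference turned to 0.03.

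Bmpr1a, the more widely expressed of the type I receptor genes here, was read by 6 probe sets that did not give 1 answer. The brightest read 444, 453 and 313 in the null-labelled lines and 406, 413 and 305 in the wild-type-labelled lines. The groups covered nearly the same range, and the log2 difference was 0.10 ± 0.17. The next brightest read 189, 149 and 147 against 133, 135 and 112, with no overlap, a log2 difference of 0.34 ± 0.16. A weaker one, 1451729_at, also did not overlap, at 77.4, 88.1 and 61.8 against 38.7, 53.2 and 58.6 (0.55 ± 0.25). Of the 3 left, 1425491_at leaned the other way with a log2 difference of -0.18 ± 0.20, 1425494_s_at was at 0.21 ± 0.21, and 1445413_at lay under background on every array, at 1.33 to 4.82. All but 1445413_at are annotated to the same source transcript, so they repeat 1 gene and are not separate evidence.

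Bmpr1b, the type I receptor whose expression is more restricted, was read by 3 probe sets. The brightest read 245, 219 and 212 in the null-labelled lines and 249, 217 and 152 in the wild-type-labelled lines, a log2 difference of 0.15 ± 0.17. Wild-type 3 was the low line and the other 5 lay between 212 and 249; without wild-type 3 the difference was -0.045. The weaker probe set 1422872_at read 59.3, 46.1 and 38.2 against 28.8, 29.4 and 35.9 without overlap (0.51 ± 0.31). The third, 1443720_s_at, read 32.8, 40.1 and 33.2 against 27.8, 30.2 and 6.13, and its difference of 0.75 ± 0.47 fell to 0.24 without wild-type 3, whose signal was under background. Both weak probe sets lie close to the bacterial controls, which were higher on null-labelled arrays; the part of this in their differences was not tested.

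Bmpr2, the type II receptor that activates the type I receptors, was nearly level across lines. Its brightest probe set gave 789, 812 and 968 against 732, 863 and 844, groups that overlapped and differed by 0.072 ± 0.12 (log2). The other 2 probe sets were weak, between 16.4 and 61.7, overlapped between groups, and differed by 0.11 ± 0.29 and 0.40 ± 0.40.

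The receptors and coreceptors tested beyond the 10 genes leaned to the positive side without a call. Of 8 listed, 6 passed the signal filter and were tested, 0 passed at a limma adjusted p under 0.05, against 0.0395% of all 12665 genes (5 genes: Hes5, Cnp, S100a1, Foxo4 and Ccbe1). All 6 had positive differences (5 of 6 with median centring or quantile normalization) with a median of 0.35, beside a median of 0.0098 over all genes and 51.7% of them positive. Unadjusted limma p-values under 0.05 numbered 3 higher and 0 lower, where 5.26% of all genes were higher and 4.94% lower. Rgmb, counted as positive, was at 0.014 ± 0.25. Nothing is read from these counts, since the list was chosen with earlier results of these data known. The smallest p belonged to Neo1, the neogenin receptor that RGM proteins bind, which read 497, 514 and 352 against 305, 311 and 290.3. Its groups did not overlap and differed by 0.56 ± 0.15 in log2 (limma adjusted p 0.237). Rgma, a membrane-anchored BMP coreceptor and neogenin ligand, read 774, 812 and 606 against 338, 591 and 481. It was at 0.65 ± 0.19 (limma adjusted p 0.269), again with no overlap. The type II receptor genes Acvr2a and Acvr2b, shared with activin, also did not overlap, at 0.36 ± 0.15 (limma adjusted p 0.438) and 0.35 ± 0.17 (0.531); they are named after their values were seen, and Acvr2b was at -0.16 with the mean of its probe sets.

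Smad1 and Smad5, the transcription factors that BMP receptors phosphorylate, had overlapping groups in all 6 probe sets. The brightest Smad1 probe set gave 297, 378 and 264 against 332, 303 and 313, which differ by -0.028 ± 0.14 in log2. Another Smad1 probe set, 1416081_at, read 210.1, 134 and 149.8 against 194, 213 and 201, where FoxO-null 2 and 3 were the lowest lines and FoxO-null 1 lay with the wild type (-0.32 ± 0.17). The third Smad1 probe set was at 0.086 ± 0.15. Smad5 varied little from line to line: its brightest probe set gave 430.5, 391 and 421 against 458, 376 and 482, and the highest array was 1.28 times the lowest. The log2 differences of its probe sets were -0.075 ± 0.12, -0.037 ± 0.13 and 0.12 ± 0.22. Transcript levels do not show how much of these proteins is phosphorylated.

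Genes that pass on or damp the Smad signal showed no common direction. Of 10 listed Smad partners and intracellular inhibitors, 8 were tested, 4 were positive, and 0 passed in limma. At an unadjusted limma p under 0.05, 1 was higher, beside 5.26% of all genes. That one was Tob1, an antiproliferative gene whose protein binds Smads, at 0.46 ± 0.20 (427, 319 and 231 against 271, 219 and 200.3, limma adjusted p 0.475), or 0.15 with the mean of its probe sets and 0.25 without FoxO-null 1. Smad7, a feedback inhibitor that BMP and TGF-beta signals induce, read 115, 135 and 85.6 against 99.3, 84.4 and 56.2, with overlap (0.47 ± 0.24, limma adjusted p 0.539), or 0.25 without wild-type 3. Smad4, the shared partner, was at 0.024 ± 0.12 (limma adjusted p 0.965), a sign that turned with median centring, and Smad6 and Smad9 fell under the signal filter. Among 13 secreted antagonists and modulators, 8 were tested, 5 were positive, and 0 passed in limma. At an unadjusted limma p under 0.05, 0 were higher and 1 lower, where 5.26% of all genes were higher and 4.94% lower. Crim1, a membrane-bound binder of BMPs, was the lower one at -0.57 ± 0.19, reading 65.3, 85.2 and 104 against 128, 132 and 121 (limma adjusted p 0.346). With the mean of all Crim1 probe sets it was -0.17. Chrdl1, a chordin-like BMP antagonist, was at 0.47 ± 0.31 (limma adjusted p 0.632; 0.30 without wild-type 3 and 0.75 with quantile normalization), and Nog, the noggin gene, was under the filter.

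**Figure D1:**
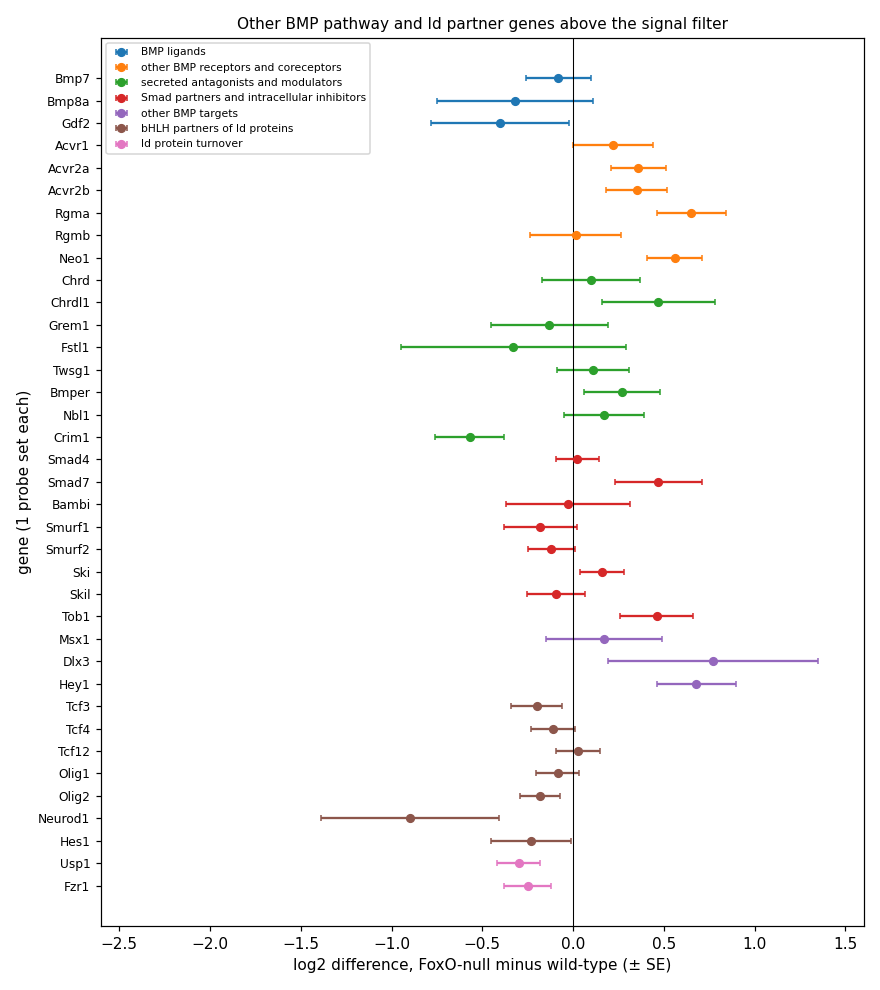
Log2 difference, FoxO-null minus wild-type, with its standard error, for the 37 genes outside the 10 that passed the signal filter, coloured by list, with 1 probe set per gene and 3 lines per group. All 6 other receptors and coreceptors lie right of 0, Rgmb only just, and 6 of the 7 bHLH partners lie left of it; with median centring these counts are 5 and 7.

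Promoter sequences were available for 9 of the 10 genes. None was available for Id1, so no sequence match given below covers it. Those of Id2, Id3 and Id4 are shown because these genes share a family but not a pattern across lines. Each is the 250 bases before the transcript start in RefSeq on GRCm38.p6, 5′ to 3′ on the gene's strand, from chr12:25096093-25096342 (minus strand) for Id2, chr4:136143572-136143821 (plus strand) for Id3 and chr13:48260866-48261115 (plus strand) for Id4. Capitals mark matches on either strand to GGCGCC, a GC-rich site that Smad1 and Smad5 can bind, to CAGAC, the Smad-binding element, to CCAAT, a common promoter box, and to GTAAACA, the core that FoxO factors recognise. No match overlapped another.
Id2: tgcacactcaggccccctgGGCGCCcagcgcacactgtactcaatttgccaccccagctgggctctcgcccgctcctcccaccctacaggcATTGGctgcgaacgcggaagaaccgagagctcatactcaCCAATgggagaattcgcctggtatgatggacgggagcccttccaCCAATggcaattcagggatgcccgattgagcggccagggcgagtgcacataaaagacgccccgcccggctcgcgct
Id3: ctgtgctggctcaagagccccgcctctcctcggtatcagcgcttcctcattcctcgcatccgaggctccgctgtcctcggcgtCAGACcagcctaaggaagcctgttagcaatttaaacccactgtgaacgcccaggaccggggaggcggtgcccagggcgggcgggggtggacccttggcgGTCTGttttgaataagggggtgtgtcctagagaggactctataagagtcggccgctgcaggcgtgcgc
Id4: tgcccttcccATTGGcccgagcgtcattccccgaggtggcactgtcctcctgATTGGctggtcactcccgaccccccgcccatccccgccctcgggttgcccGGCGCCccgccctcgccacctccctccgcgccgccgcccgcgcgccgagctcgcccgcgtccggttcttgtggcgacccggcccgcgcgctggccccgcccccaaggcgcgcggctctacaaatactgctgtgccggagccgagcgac

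Id2 and Id4 each held 1 GGCGCC, with 3 and 2 CCAAT boxes, while Id3 held neither but had 2 CAGAC. Over all 32851 promoter windows of that length, 9.59% held GGCGCC, 42.2% CAGAC, 33.8% CCAAT and 3.17% GTAAACA. The 9 genes had 13 windows, of which 5 held GGCGCC, 4 CAGAC, 7 CCAAT and 0 GTAAACA. Some of these windows belong to the same gene and overlap. A match is a match of letters only, and distant enhancers lie outside the windows.

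Id1, the Id gene most directly switched on by BMP signals, separated the lines by label. Its signal was 1206, 897 and 974 in the null-labelled lines, against 408, 564 and 659.7 in those labelled wild-type. The lowest null-labelled line was still above the highest wild-type-labelled line, and the spread within each group was of similar size. The means were 1026 ± 161 and 544 ± 127 (SD, n = 3 lines each), a log2 difference of 0.92 ± 0.17. It stayed between 0.73, without wild-type 1, and 1.08, without wild-type 3. Arrays measure a mixture, so more Id1 RNA per cell and more cells with Id1 cannot be told apart here, for this or any gene below.

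Id2, which also binds the retinoblastoma protein, was read by 3 probe sets that all leaned the same way. The brightest, 1435176_a_at, read 630.2, 631 and 692 in the null-labelled lines and 381, 482 and 389 in the wild-type-labelled lines. The groups did not overlap. Their means were 651 ± 35.3 and 417 ± 55.9 (SD, n = 3), which differ by 0.64 ± 0.12 in log2, or 0.58 without wild-type 1. The second, 1422537_a_at, had the same difference of 0.64 ± 0.22 but overlapped, at 653, 390.3 and 745 against 292, 463 and 364. FoxO-null 2 is where these probe sets part: it lies with its group in the first and below wild-type 2 in the second. The third, 1453596_at, was weak, at 60.4, 45.7 and 37.1 against 21.2, 18.3 and 32.6, and did not overlap (0.85 ± 0.35). Some of its signals lay close to background, as the 18.3 of wild-type 2 (background 15.8) and the 37.1 of FoxO-null 3 (26.9). Background was higher on null-labelled arrays, and the part of this in the difference was not tested.

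Id3, a close relative of Id1 that is often expressed with it, showed a smaller lean. It read 899, 690.1 and 628 against 596, 466 and 667. FoxO-null 1 was the highest line and wild-type 2 the lowest, while wild-type 3 lay above FoxO-null 3. The log2 difference was 0.36 ± 0.16, or 0.21 without FoxO-null 1 or without wild-type 2.

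Id4, which in the brain is tied to the timing of oligodendrocyte formation and to stem cell quiescence, was low in lines of both labels in 2 of its 3 probe sets. Probe set 1423259_at read 116, 88.8 and 54.4 in the null-labelled lines and 36.4, 110.1 and 105 in the wild-type-labelled lines. Wild-type 1 and FoxO-null 3 were the low lines, and the other 4 lay together. Probe set 1450928_at showed the same 2 low lines, at 108, 96.3 and 34.7 against 34.0, 104 and 117. The remaining one, 1423260_at, was also lowest on wild-type 1, at 25.8, but read 101 on FoxO-null 3, its highest line. All 3 are annotated to the same source transcript, and the cause of their disagreement on FoxO-null 3 was not tested. Log2 differences were 0.12 ± 0.37, -0.065 ± 0.45 and 0.51 ± 0.37, and without wild-type 1 all 3 were negative, at -0.35, -0.58 and -0.018.

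**Figure D2:**
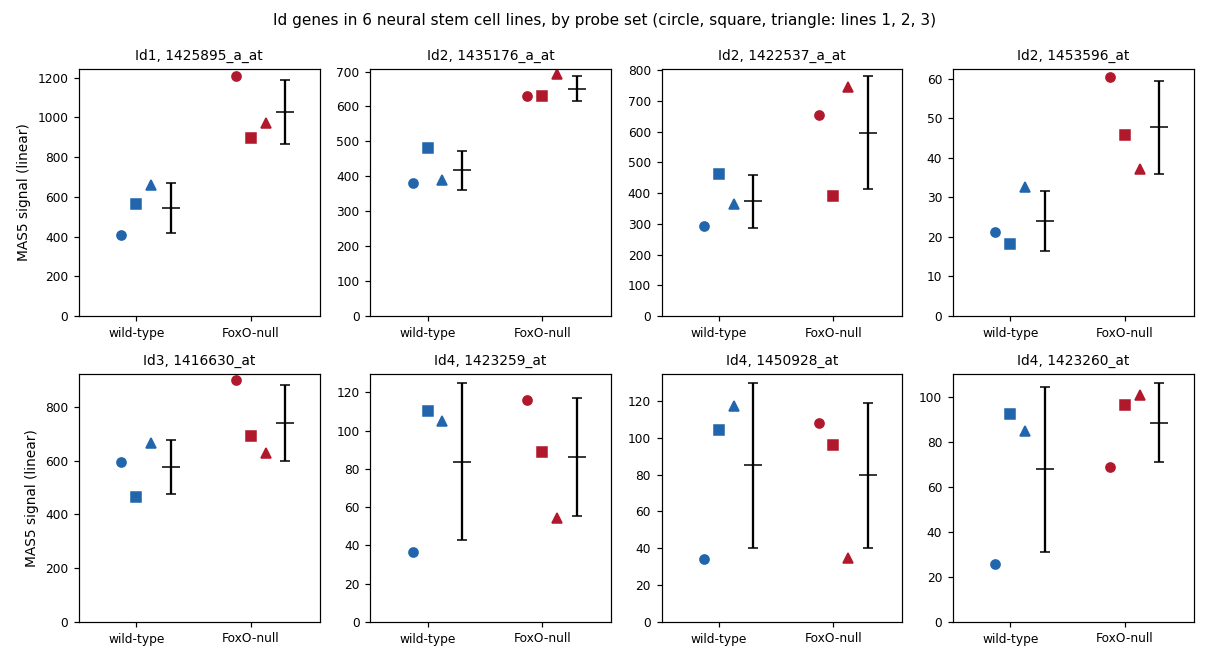
MAS5 signal (linear axis from 0) of each Id probe set in 3 wild-type (blue) and 3 FoxO-null (red) lines, with the group mean and SD in black. Id1 and 2 of the 3 Id2 probe sets have no overlap, and Id4 is low in wild-type 1 in all 3 of its probe sets.

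The spread between lines of 1 group does not use the difference between groups. For Id4 it was wide: the within-group SD was 0.68, 0.86 and 0.68 on the log2 scale, against a median of 0.24 over all 12665 genes tested, and 6.24%, 2.74% and 6.47% of those genes had a larger one. Id1 had an SD of 0.29, with 37% of genes larger. The brightest Id2 probe set, at 0.14, was among the steady ones, with 79.3% of genes larger. The log2 SD of a probe set also depends on its signal strength.

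**Figure D3:**
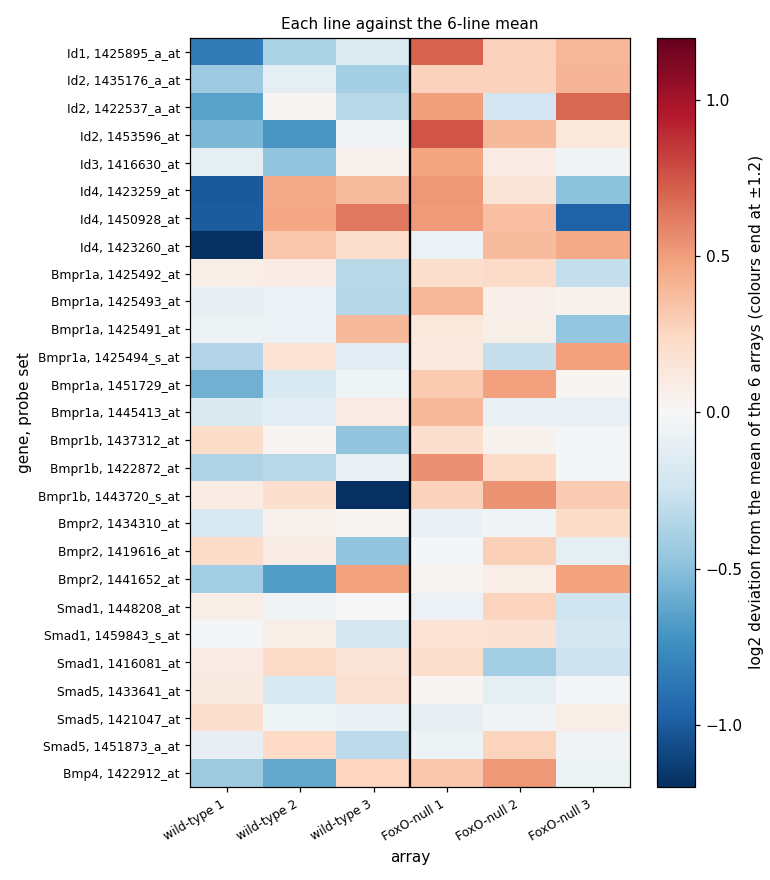
Colour gives the log2 deviation of each array (columns) from the mean of the 6 arrays, for all 27 probe sets (rows). Id1 and Id2 change from blue to red at the line between the groups, except in 1422537_a_at, where FoxO-null 2 is blue and wild-type 2 near white, and in 1453596_at, where wild-type 3 is near white, Id4 is lowest on wild-type 1, and the Smad rows are pale.

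Other genes that BMP signals can induce were mostly too weak to read. Of 6 listed, 3 were under the filter and 3 were tested, with 0 passing in limma. All 3 were positive, beside 51.7% of all genes. At an unadjusted limma p under 0.05, 1 was higher, beside 5.26% of all genes. Hey1, a target shared by Notch and BMP signals, read 232, 152 and 269 against 113, 119.7 and 162, with FoxO-null 2 just under wild-type 3 (0.68 ± 0.22, limma adjusted p 0.312). Dlx3 was at 0.77 ± 0.58 (limma adjusted p 0.684) and exceeded background on 2 of 6 arrays. It was 0.22 without FoxO-null 3, its highest line, and 1.19 without FoxO-null 2.

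None of the genes tested for bHLH proteins that Id proteins bind or hold back passed the threshold. Of 10 listed, 7 were tested, 1 was positive, and 0 passed in limma (0 at an unadjusted p under 0.05), with a median log2 difference of -0.18. The E protein genes Tcf3, Tcf4 and Tcf12, the direct partners, were at -0.20 ± 0.14, -0.11 ± 0.12 and 0.026 ± 0.12 (limma adjusted p 0.659, 0.801 and 0.960), and all overlapped. The sign of Tcf12 turned with median centring. Olig2, a bHLH factor of the oligodendrocyte lineage, was at -0.18 ± 0.11 (limma adjusted p 0.617), or -0.089 without FoxO-null 3. Neurod1, a neuronal bHLH gene, was above background on all 3 wild-type-labelled arrays, at 27.8, 26.7 and 29.6, and on 0 null-labelled arrays, at 2.60, 22.4 and 18.7. The geometric mean of its wild-type-labelled signals was 1.15 times that of the null-labelled arrays' backgrounds. This is no bound for each line, since wild-type 2, at 26.7, lay under the backgrounds of FoxO-null 2 and 3 (27.6 and 26.9). The wild-type-labelled backgrounds were lower (14.4, 15.8 and 19.1), and the 22.4 of FoxO-null 2 lay above all of them. The fitted Neurod1 difference was -0.90 ± 0.49 (limma adjusted p 0.563), and it shrank to -0.36 without FoxO-null 1. Usp1, which encodes an enzyme that removes ubiquitin from Id proteins, read 531, 602 and 518 against 737, 625 and 674 without overlap, at -0.30 ± 0.12 (limma adjusted p 0.405), or -0.52 with the mean of its probe sets. Fzr1, an activator of the ubiquitin ligase that marks Id proteins for destruction, was at -0.25 ± 0.13 (limma adjusted p 0.556), also without overlap. Both turnover genes were thus lower in signal on every null-labelled array, as were 5.67% of all 45037 probe sets, and neither passed. Nothing is read from this, since that list was chosen with earlier results of these data known.

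Across the 7 lists of 61 further genes, 37 were tested, and 0 passed in limma, with a smallest adjusted p of 0.237. Without adjustment, 5 were higher and 2 lower at a limma p under 0.05, and 19 of the 37 were positive, with a median of 0.014. Over all 12665 genes tested, 5.26% were higher and 4.94% lower at that p, and 51.7% were positive. The counts of these lists are a description only, since the lists were chosen with earlier results of these data known.

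Summed signals of glial markers were, like Id1, higher in every null-labelled line than in every wild-type-labelled line. The 8 astrocyte markers (Gfap, Aqp4, Slc1a3, Slc1a2, Aldoc, S100b, Aldh1l1 and Glul) were above background on all arrays, 7 had positive differences, and 0 passed in limma, with 5 higher at an unadjusted p under 0.05. Over all 12665 genes tested, 51.7% were positive and 0.0395% passed, with 5.26% higher and 4.94% lower at that unadjusted p. Nothing is read from the marker counts here, since the gene lists were chosen with earlier results of these data known. The summed astrocyte signal was 10046 to 11198 in the null-labelled lines and 6957 to 8844 in the wild-type-labelled lines. Most of it was Slc1a3, Aldh1l1 and Aldoc, and Slc1a2, S100b and Aldh1l1 overlapped between the groups. Of 6 oligodendrocyte markers read here (Pdgfra, Sox10, Cnp, Mbp, Mag and Mog), 5 were above background on all arrays, while Mog, a marker of mature myelin, was under it on every array. Their summed signal was 8016 to 8408 against 4465 to 5823, most of it Mbp and Cnp, while Pdgfra and Mag overlapped between the groups. Cnp was the only one past the threshold (0.87 ± 0.12 in log2, limma adjusted p 0.0471). The 5 endothelial markers, a cell type rich in Id1 and Bmpr2, summed to 68.2 to 105 against 54.5 to 84.5, and 0 of 5 were above background on all arrays, with Pecam1 and Tek under it on every one. Kdr was above it on 5 of 6 arrays, at 16.3, 30.7 and 49.6 against 32.2, 42.8 and 25.4. Microglial markers summed to 89.0 to 97.1 against 70.8 to 100.2, with Aif1, Ptprc and Itgam under background throughout and Csf1r above it on all 6 arrays, at 49.4, 51.8 and 67.6 against 64.0, 73.4 and 47.5. Mesenchymal markers summed to 78.1 to 133 against 62.2 to 132, with Dcn under background throughout and Col1a2 above it on all 6, where its lowest and highest signals, 23.3 and 81.6, were both in wild-type-labelled lines. Kdr, Csf1r and Col1a2 overlapped between the groups. Neuronal markers summed to 1351 to 1385 against 1291 to 1597, most of it Map2. Of the 6, 2 had positive differences and 0 passed in limma, with 1 lower at an unadjusted p under 0.05. That was Tubb3, at 27.5, 31.1 and 39.6 against 62.9, 58.2 and 42.1 (-0.64 ± 0.27, limma adjusted p 0.452), and Syt1 was also lower on every null-labelled array. The part of glial or neuronal marker levels in the Id differences was not tested.

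The genes whose pattern over the 6 arrays was most like that of Id1 were Mmd2, Hscb, Aqp4, Npc2 and Krba1, with Pearson r on log2 values of 0.998, 0.992, 0.991, 0.988 and 0.987. Mmd2 read 1756, 1201 and 1377 against 471, 682 and 898, the same order of lines as Id1. Of the 12665 tested genes, 275 reached an r of 0.9 or more. Among the 10 genes, Id2 had r = 0.86 and ranked 452nd, Bmp4 0.71, Id3 0.70 and Id4 0.47, while Smad5 and Smad1 were at -0.20 and -0.26. These correlations include the difference between the groups and are a description.

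**Figure D4:**
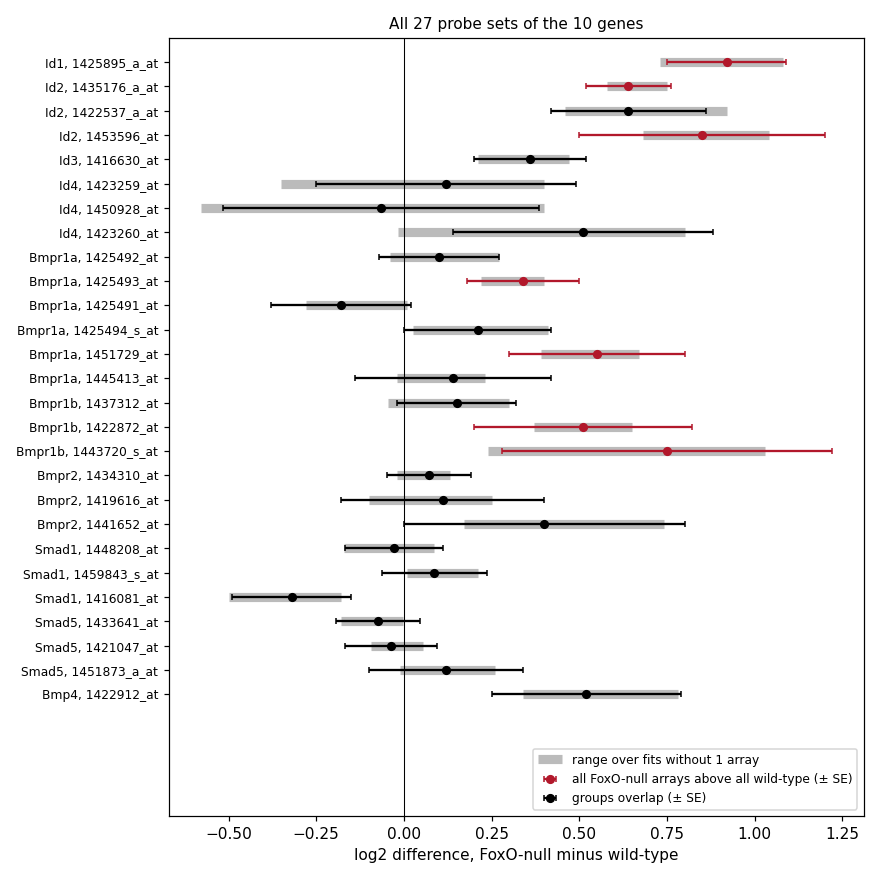
Points give the log2 difference, FoxO-null minus wild-type, of each of the 27 probe sets with its standard error (3 lines per group); grey bars span the fits that left out 1 array. Red points have every null-labelled array above every wild-type-labelled array (7 probe sets), and the grey bars of Id1 and Id2 stay right of 0 while those of Id4 cross it.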

How the data were processed

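Each array was deposited as a column of linear intensity, the MAS5 signal named in the submitters' processing notes; all 6 arrays have a mean of 100 after trimming 2% at each end. Gene names came from the platform annotation, and all 10 members matched RefSeq gene numbers. An offset of 5.94, the 20th percentile over all arrays, was added before taking log2. The fit used lmFit and eBayes (intensity trend, two-sided, Benjamini-Hochberg) of limma 3.58.1 in R 4.3.3, over 45037 non-control probe sets for the members. For the other genes it used 12665 genes, each by its brightest probe set, where its mean log2 value lay at or above the 40th percentile, which is a signal of 16.2 if equal on all arrays. Results are mean signals ± SD. A 3 against 3 exact permutation test cannot give p under 0.1, so none was run. The lines are called independent in the series' text; p-values measure the spread between them. The members and gene lists were chosen with earlier results of these data known. Named outside the 10 were list genes past the threshold or, where none passed, the 2 of smallest p per list, and the 5 genes most like Id1; others were named for their role or after their values were seen. The procedure was tested on simulated data, with changes larger than any difference of the 10 genes and the same spread for every gene. That test does not show how well differences of the size seen here would be found.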

Additional observations from a re-analysis of the deposited data

How the results depend on the processing

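Signals, not read depth, limit precision here: probe sets near the bacterial controls carry little information. The 1 probe set past the threshold was 0 with an offset at the 40th percentile, median centring, no intensity trend or the replicate block. The 5 genes past it were 1 with an offset of 1, without the low-signal filter, with quantile normalization or with the mean of all probe sets of a gene, 0 with median centring or no intensity trend, and 7 with the 40th-percentile offset. Leaving out 1 array gave 0 to 1 probe sets and 0 to 13 genes: of the null-labelled lines, omitting number 1 left 0 genes, number 2 left 4 and number 3 left 1; of the others, omitting number 1 or 2 left 3 and number 3 left 13. The pathway lists had 0 genes past the threshold in each of these fits. Whether the replicate numbers pair the lines cannot be settled from 3 arrays per group. Deviations of same-numbered lines from their group means correlated at 0.0226, 0.0915 and 0.125. These were the best match of 5 lines, while wild-type 1 correlated best with FoxO-null 2, at 0.0776. The main fit treated the lines as unpaired. With the replicate block 6 genes, 0 probe sets and 0 pathway genes passed. Of 360 alternative values of the members' probe sets, 359 moved by less than 1 within-group SD; the other is Bmpr1b, at 0.47 with the mean of its probe sets. Signs changed in 21, over 13 probe sets, none of Id1, Id2 or Id3 and none under median centring or quantile normalization. Of 291 values of the 21 named pathway genes, 279 kept their direction and 12 turned, with 0 calls in either case: Smad4 to -0.044 and Tcf12 to -0.042 with median centring; Tcf12 to -0.12 and Acvr2b to -0.16 with the mean of all probe sets; and 8 without 1 array, where the ranges were -0.77 to 0.03 for Gdf2, -0.25 to 0.039 for Bmp7, -0.045 to 0.13 for Smad4 and -0.09 to 0.11 for Tcf12. The cause was not tested.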

Other observations

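Fst, the follistatin gene whose protein binds activins and some BMPs, was under the signal filter, which is set on the mean of log2 values, and is named after its values were seen. It read 6.72, 10.7 and 3.89 in the null-labelled lines, all under their background, and 33.0, 22.1 and 32.0 in the wild-type-labelled lines, all above theirs. The geometric mean of the wild-type-labelled signals was 1.18 times that of the FoxO-null arrays' backgrounds. This is no bound for each line, since wild-type 2, at 22.1, lay under the backgrounds of FoxO-null 2 and 3 (27.6 and 26.9). Fst was not in the fit of genes. Its probe set was in the fit of all 45037 probe sets and did not pass, since only the one that reads Hes5 did.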
